A study of Caenorhabditis elegans with 2 samples.

Results

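A set of 34 Caenorhabditis elegans genes of axon guidance and outgrowth was examined for regions enriched by chromatin immunoprecipitation (ChIP-seq) of the homeodomain protein EYG-1, named after Drosophila eyegone. The genes were taken from a list by symbol, and all 34 matched 1 of the 19973 protein-coding genes of the WBcel235 (ce11) Ensembl annotation. A region was assigned to a gene when its summit lay inside the gene or within 2000 bp of its annotated 5' end, and genes without a region were kept. The worms were hermaphrodite strain OP443, whose transgene adds GFP and FLAG to the C-terminus of EYG-1 (sequence name Y53C12C.1), and whole late embryos were taken 4 hours after bleach synchronization. The only group held 2 libraries, labelled biological replicates 1 and 3, both precipitated with an antibody against GFP, so there was no comparison between conditions and no test. A control library is named in the labels but was not analysed here, and the promoter that drives the fusion was not given in the sources used here. Whole embryos mix neurons with all other cells, so the cell type in which the tagged protein bound cannot be told apart, and no expression of the 34 genes was measured.

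Growing axons are steered by secreted or membrane-bound cues (netrins, slits, ephrins and semaphorins) that act on receptors at the growth cone. Receptor signals are passed to actin, to microtubules and to the motor transport that supplies the growing tip, and many of these components were found in C. elegans through mutants with uncoordinated (unc) movement. Several of the same molecules also act outside neurons in the embryo, for example ephrins and semaphorins in epidermal cell movement.

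A total of 4 lists of regions deposited by the authors were used. The pooled list, called on both libraries together, held 24215 regions. The replicate 1 list held 27360 and the replicate 3 list 24519, of which 13 lay on mitochondrial DNA. These 3 lists also contain background regions. In the optimal list were the 519 regions that passed an irreproducible discovery rate (IDR) threshold, a measure of how steadily regions rank in different lists. The height of a region was the authors' signal value, on the peak caller's own scale. That scale differs between lists (medians of 18.2 in the pooled, 9.93 in the replicate 1, 12.2 in the replicate 3 and 91.6 in the optimal list), so signal was compared only within a list, and rank 1 was the highest signal of a list. The depth of the libraries is unknown here.

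In the optimal list, 6 regions lay at 5 of the 34 genes (14.7%), against 3.28% of all protein-coding genes. The 5 genes were syd-2 (liprin-alpha, a scaffold of presynaptic sites), unc-33 (a CRMP homolog that organizes axonal microtubules), unc-115 (an actin-binding protein of the abLIM family), vab-2 (an ephrin) and smp-1 (a transmembrane semaphorin). The 34 genes were long: 32 of them measured at least 5 kb, and among all 3233 genes of that length 5.85% had an optimal region, against 5 of those 32 (15.6%). Of the 5 genes, 2 carried the optimal region in the promoter, taken as the span from 1000 bp upstream to 200 bp downstream of the annotated 5' end, and 3 in an intron. For all protein-coding genes those shares were 1.82% and 0.631%, and for genes of at least 5 kb they were 2.54% and 2.38%. None of the 34 genes had an optimal region in an exon or farther upstream, classes that 0.0651% and 0.596% of all protein-coding genes showed. Counting gene bodies alone left 3 of the 5 genes, since the summits at syd-2 and unc-115 lay upstream of the gene, and keeping only optimal regions at or above their list's median signal also left 3.

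Windows reaching 50 bases to each side of optimal summits, plus that of the strongest pooled summit of unc-76 (an adaptor of kinesin transport), are shown. The optimal windows show where the regions that passed the IDR threshold were centred, and the unc-76 window was added as a promoter that held GAGAGA and ranked alike in both libraries. They were read from the plus strand of the RefSeq WBcel235 (ce11) genome. Capitals mark the tRNA gene in the first unc-33 window and the letters GAGAGA, or TCTCTC on the other strand, in the windows of unc-115 and unc-76; syd-2 and vab-2 lie on the minus strand. The windows were chrX:10555560-10555660 (syd-2), chrX:10146696-10146796 (unc-115), chrIV:3524791-3524891 and chrIV:3521188-3521288 (unc-33), chrIV:3763548-3763648 (vab-2) and chrV:15071397-15071497 (unc-76). No window from smp-1 is shown, nor any from unc-40, unc-14 or ptp-3, whose strongest pooled signals exceeded that of unc-76.
syd-2 promoter: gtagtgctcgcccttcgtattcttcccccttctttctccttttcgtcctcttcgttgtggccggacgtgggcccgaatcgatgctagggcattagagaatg
unc-115 promoter: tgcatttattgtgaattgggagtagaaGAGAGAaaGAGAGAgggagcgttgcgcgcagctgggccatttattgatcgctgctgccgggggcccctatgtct
unc-33 intron with tRNA gene: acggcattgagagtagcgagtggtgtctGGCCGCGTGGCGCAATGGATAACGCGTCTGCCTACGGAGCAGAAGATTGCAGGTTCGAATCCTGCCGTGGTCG
unc-33 intron without tRNA gene: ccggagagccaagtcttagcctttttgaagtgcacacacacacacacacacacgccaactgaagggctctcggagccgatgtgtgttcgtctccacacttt
vab-2 intron: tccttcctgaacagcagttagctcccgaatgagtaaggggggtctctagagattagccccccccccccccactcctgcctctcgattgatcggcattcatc
unc-76 promoter: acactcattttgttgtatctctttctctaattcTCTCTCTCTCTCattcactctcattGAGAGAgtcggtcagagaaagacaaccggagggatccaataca

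The highest optimal region at these genes lay in the promoter of syd-2 (chrX:10555382-10555837), with its summit 371 bp upstream of the 5' end, an optimal signal of 108 and optimal rank 159. It had a signal of 33.8 (rank 418) in the replicate 1 list and 56.6 (rank 187) in the replicate 3 list, and 90.3 (rank 226, q = 0.000653) in the pooled list. This was the only pooled region assigned to syd-2, and another, of signal 14.9, lay 2194 bp upstream, just outside the reach. The replicate 1 list had 2 regions at syd-2 and the replicate 3 list 1. The pyrimidine-rich window printed for syd-2 held none of the motifs searched.

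The promoter of unc-115 held an optimal region (chrX:10146518-10146973) centred 146 bp upstream of the 5' end, with an optimal signal of 100.5 and optimal rank 204. Its signal was 49.2 (rank 158) in the replicate 1 list and 45.8 (rank 328) in the replicate 3 list, and 84.7 (rank 256) in the pooled list. A further pooled region (chrX:10144894-10145349) lay 1770 bp upstream of unc-115 at the tRNA-Arg gene F09B9.t1 (chrX:10145156-10145228), with a pooled signal of 39.0. This upstream region ranked 10419 in the replicate 1 list and 989 in the replicate 3 list, so the libraries differed much more there than at the promoter.

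Of the 34 genes, unc-33 was the only one with more than 1 optimal region, and both lay in introns. The higher one (chrIV:3524613-3525068), 7955 bp downstream of the 5' end, had an optimal signal of 103.7 (rank 181) and lay on the tRNA-Arg gene M57.t1 (chrIV:3524819-3524891, plus strand, 73 bp). In the replicate 1 list it had a signal of 35.1 (rank 374), in the replicate 3 list 69.1 (rank 120), and in the pooled list 102 (rank 164), the highest pooled signal at any of the 34 genes. The nearest protein-coding 5' end was that of the neighbour M57.2, 2513 bp away. Whether the signal belongs to the tRNA gene or to unc-33 cannot be told apart.

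The lower optimal region of unc-33 (chrIV:3521010-3521465), 4352 bp downstream of the 5' end, had an optimal signal of 77.6 (rank 411) and no small RNA gene. Its replicate signals were 14.1 (rank 4855) in replicate 1 and 23.3 (rank 1638) in replicate 3. A neighbouring pooled region of unc-33 (chrIV:3521697-3522152) had the higher pooled signal, 44.1 against 42.5, and better ranks in both libraries (1919 in replicate 1 and 1124 in replicate 3), but was not in the optimal list. The window printed for the lower optimal region contains a run of alternating c and a.

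The optimal regions of smp-1 and vab-2 each lay in the first intron of the annotated gene. That of smp-1 (chrI:14808259-14808714), 1025 bp downstream of the 5' end, had an optimal signal of 79.0 (rank 391). It ranked 108 in the replicate 1 list, the best rank of any of the 34 genes there, with a signal of 54.6. In the replicate 3 list it ranked 1056, with a signal of 27.1.

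The vab-2 optimal region (chrIV:3763370-3763825), 3228 bp downstream of the 5' end, also had an optimal signal of 79.0 (rank 390), and a signal of 32.7 (rank 439) in the replicate 1 list. The replicate 3 list had no summit within 100 bp of it. The pooled summit at this place (chrIV:3763420-3763875, pooled signal 50.7, rank 851) did have a replicate 3 summit within 100 bp, with a signal of 22.3 (rank 1870). Both intron regions were thus stronger in replicate 1 than in replicate 3 by rank, whereas syd-2 and the higher unc-33 region ranked better in replicate 3.

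**Figure D1:**
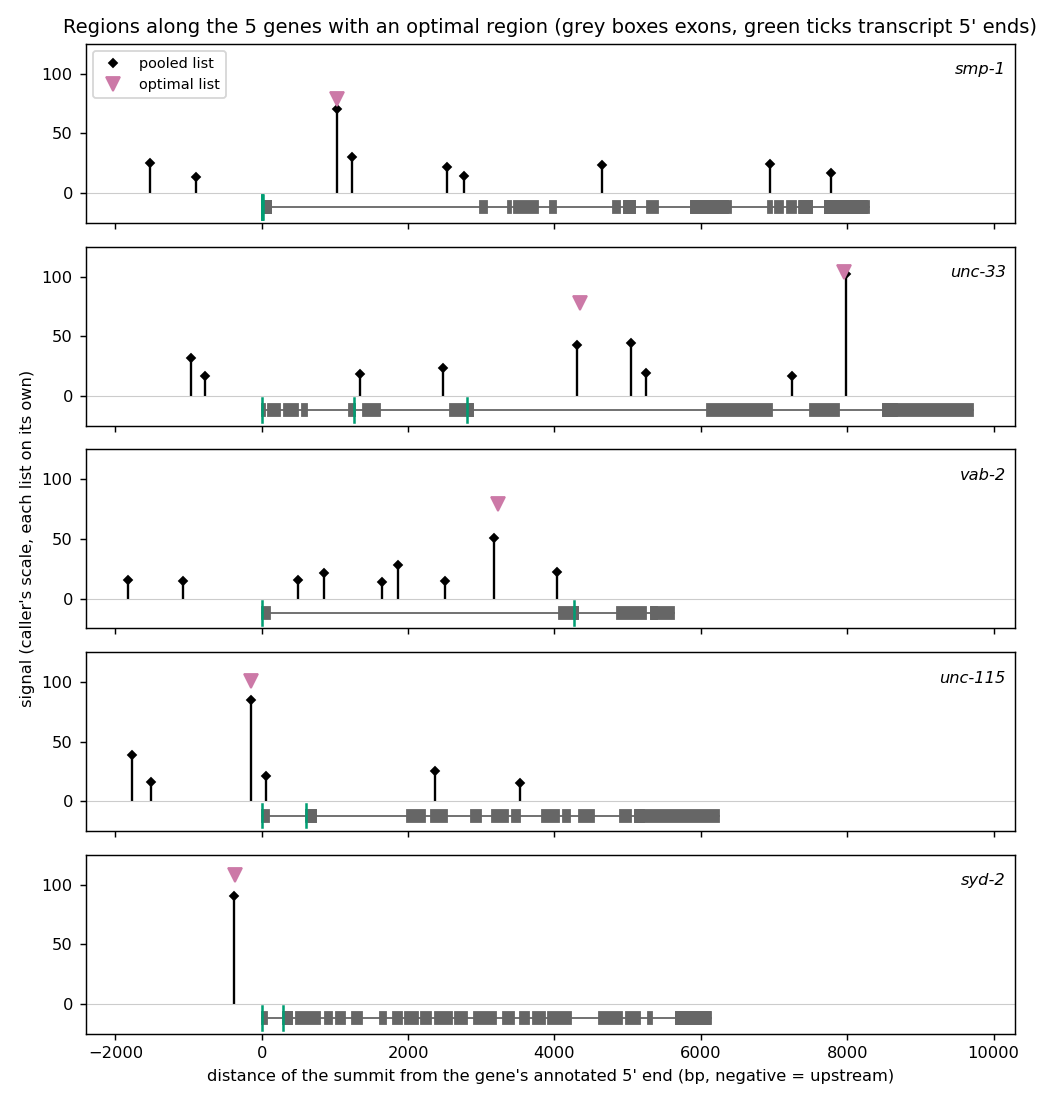
Signal of regions (vertical axis, peak caller's scale, each list on its own) against distance of the summit from the annotated 5' end (horizontal axis, bp) for the 5 genes with an optimal region. Black stems are pooled regions, triangles optimal regions, grey boxes exons and green ticks transcript 5' ends; syd-2 has 1 region, at its promoter, while smp-1, unc-33 and vab-2 each have 9.

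Ranking each list by signal and taking its top 519 regions, as many as the optimal list holds, gave overlapping sets of genes. In the pooled list 4 of the 34 genes had such a region (unc-33, syd-2, unc-115 and smp-1), against 3.49% of all protein-coding genes. In the replicate 1 list they were 5 (smp-1, unc-115, unc-33, syd-2 and vab-2) and in the replicate 3 list also 5 (unc-33, syd-2, unc-115, unc-40 and unc-14), against 3.35% of all protein-coding genes in each. The genes found by both libraries were 3: unc-115, unc-33 and syd-2. The entries of smp-1 and vab-2 rested on replicate 1, and those of unc-40 and unc-14 on replicate 3.

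Every one of the 34 genes had at least 1 pooled region, against 62.2% of all protein-coding genes and 86.9% of those of at least 5 kb. In the replicate 1 list 33 genes had a region (69.1% of all protein-coding genes did), the exception being the ephrin gene efn-3. In the replicate 3 list 32 did (65.2% of all), without the semaphorin gene smp-2 and the plexin gene plx-2. Because these lists hold background regions, such a count says little about binding. Only 24 of the 231 pooled regions had a q-value of at most 0.05 (10.4%, against 7.79% of all pooled regions). They lay at 18 of the 34 genes (52.9%), against 11.3% of all protein-coding genes. Among genes of at least 5 kb it was 18 of 32, against 20.6% of all genes of that length. Such shares of genes can rise with the number of regions per gene. Its median was 6 at the 34 genes, 1 over all protein-coding genes and 3 over those of at least 5 kb. The strongest pooled region per gene had a median signal of 35.5 over the 34 genes (quartiles 23.4 and 48.3). It was 21.4 over the 12431 protein-coding genes with a region and 24.5 over those of at least 5 kb. A strongest value can also rise with the number of regions per gene. Taken over every region, the median signals lay closer: 19.3 at the 34 genes, 18.4 at all protein-coding genes and 18.3 at those of at least 5 kb.

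**Figure D2:**
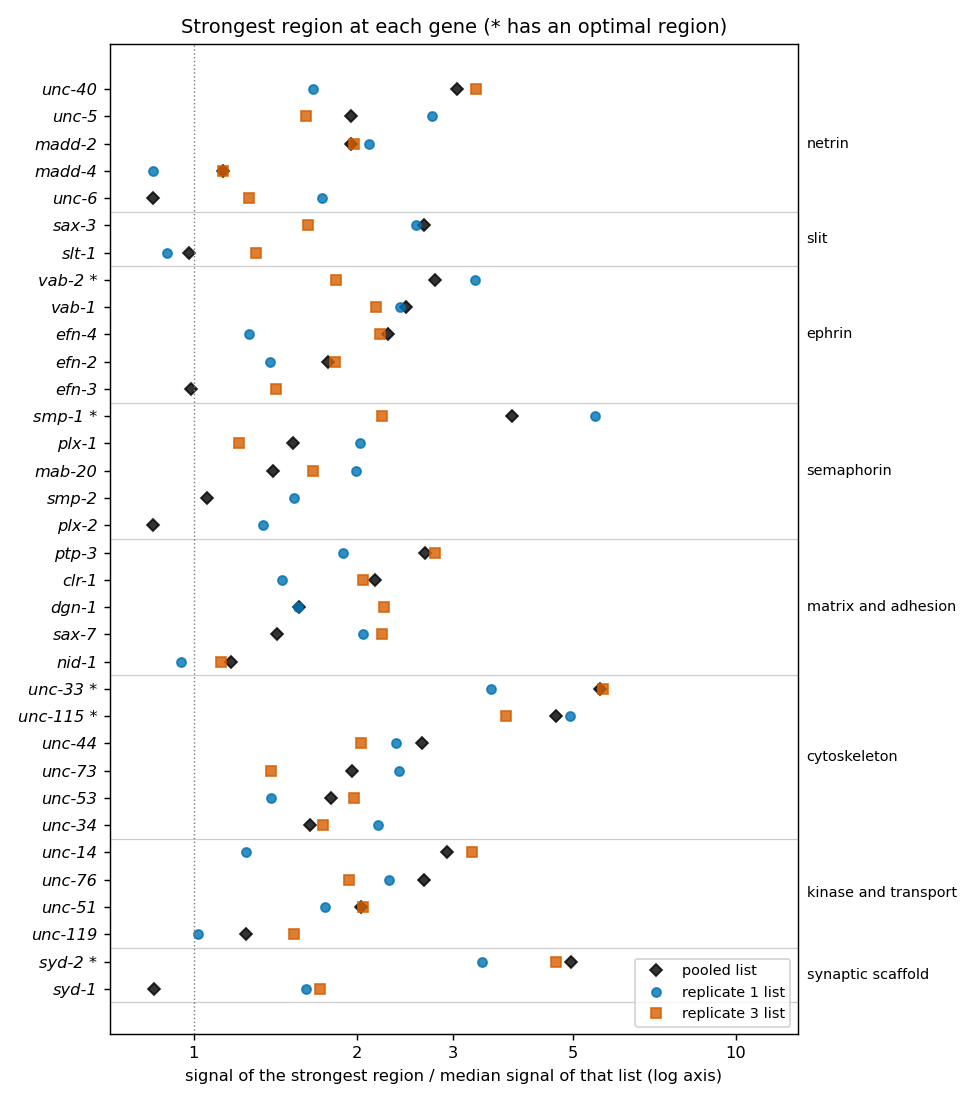
Signal of the strongest region at each of the 34 genes divided by the median signal of its list (horizontal log axis, no unit), with genes grouped by role and sorted by the pooled value. Diamonds are the pooled, circles the replicate 1 and squares the replicate 3 list, and stars mark genes with an optimal region; unc-33, syd-2, unc-115 and smp-1 stand farthest right in the pooled list, and in 5 genes (unc-6, slt-1, efn-3, plx-2 and syd-1) the pooled value lies left of 1.

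The role groups are described below; genes outside the 5 with an optimal region, the 10 with the highest and the 3 with the lowest strongest pooled signal were named after their values were seen. In the netrin group, the pooled list had its highest region at the receptor gene unc-40, but the replicate 1 list did not. The netrin gene unc-6 had 3 pooled regions, the strongest with a pooled signal of 15.3 (rank 18546), below the list's median, and its promoter region (57 bp upstream) had 15.1. In the single libraries the strongest unc-6 region had a signal of 17.1 (rank 2534) in replicate 1 and 15.4 (rank 6147) in replicate 3. The promoter of unc-40, the DCC-type netrin receptor, had a pooled signal of 55.6 (rank 702), 200 bp upstream of the 5' end. This unc-40 region had a signal of 16.5 (rank 2866) in replicate 1 and 40.4 (rank 423) in replicate 3, and it also lay in the promoter of the nucleoporin gene npp-7. The region can therefore not be assigned to unc-40 alone. In replicate 1 the strongest signals of unc-5 (27.3), madd-2 (20.9) and unc-6 (17.1) were above that of unc-40, and in replicate 3 that of unc-40 was the highest of the group.

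The second netrin receptor gene, unc-5, had 14 pooled regions, all in introns, with the strongest at 35.5. The strongest regions of madd-2, a TRIM-family protein that acts with UNC-40, reached 35.5, and those of madd-4, a secreted guidance protein of muscle arms and synapses, 20.5. Over the 5 genes of the group the 29 pooled regions had a median signal of 16.5, and 34.5% of them exceeded the list's median, the lowest share of the 8 groups. This share counts regions rather than genes, and unc-5 alone held 14 of the 29. By gene the median pooled signal was 37.6 at unc-40, 23.3 at madd-2, 17.4 at madd-4, 15.8 at unc-5 and 15.1 at unc-6. No gene of this group had an optimal region.

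The slit gene slt-1 had 2 pooled regions, the stronger with a pooled signal of 17.8, at the tRNA-Ile gene C26G2.t1 (chrX:14679160-14679233). The Robo receptor gene sax-3 had 9 pooled regions, and its strongest, 1677 bp upstream of the 5' end (chrX:3467376-3467831), had a pooled signal of 48.2 (rank 930). This sax-3 region had a signal of 25.6 (rank 822) in replicate 1 and 19.7 (rank 2731) in replicate 3, so it stood among the upper regions of both lists without reaching rank 2000 in replicate 3.

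In the ephrin group, the Eph receptor tyrosine kinase gene vab-1 carried 18 pooled regions, of which 12 lay in introns, with the strongest at a pooled signal of 44.8. Among the 4 ephrin genes, vab-2 reached a pooled signal of 50.7, efn-4 reached 41.5, efn-2 reached 32.2 and efn-3 reached 18.0. The order matched the number of regions only loosely: efn-4 had 10, vab-2 had 9, efn-2 had 3 and efn-3 had 1. With 27 of 41 pooled regions (65.9%) above the list's median, the ephrin group had the highest such share.

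In the semaphorin group, smp-1 stood apart with a strongest pooled signal of 70.1. The plexin receptor gene plx-1 reached 27.6, the secreted semaphorin gene mab-20 reached 25.4 at its promoter (89 bp upstream), and the transmembrane semaphorin gene smp-2 reached 19.2. The plexin gene plx-2 had a single pooled region, of signal 15.3 (rank 18547), the lowest strongest pooled region of all 34 genes. Its strongest region in the replicate 1 list had a signal of 13.3 (rank 5855), and the replicate 3 list had none at plx-2.

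Among the matrix, adhesion and receptor phosphatase genes, the highest region lay in an intron of ptp-3, a LAR-type receptor tyrosine phosphatase, 15253 bp downstream of the 5' end (chrII:10990564-10991019), with a pooled signal of 48.4 (rank 918). This ptp-3 region ranked 6492 in replicate 1 (signal 12.9) and 624 in replicate 3 (signal 33.9), so it stood higher in replicate 3. The strongest pooled signals were 39.3 for the receptor phosphatase gene clr-1, 28.4 for the dystroglycan gene dgn-1, 25.8 for the L1-type adhesion gene sax-7 and 21.3 for the nidogen gene nid-1. No gene of this group had an optimal region.

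The cytoskeletal group held 2 of the 5 genes with an optimal region and the most pooled regions, 65 over 6 genes. After unc-33 and unc-115, the highest strongest region was that of unc-44, the ankyrin gene, 1149 bp upstream of its 5' end, with a pooled signal of 47.8, rank 1016 in replicate 1 and rank 1366 in replicate 3. The strongest pooled signals were 35.6 for the Trio-type exchange factor gene unc-73, 32.5 for unc-53, a neuron navigator homolog, and 29.7 for the Enabled homolog unc-34. The unc-73 region lay 26185 bp into the gene and also inside and in the promoter of the gene F55C7.2. The group's median pooled signal was 18.1, against 18.2 for the whole list, and 49.2% of its regions exceeded the list's median.

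Of the kinase and transport genes, the promoter of unc-14, a RUN-domain partner of the kinase UNC-51, had a pooled signal of 53.2 (rank 763, chrI:7128122-7128577). In replicate 1 it had a signal of 12.4 (rank 7336) and in replicate 3 39.7 (rank 444). The promoter of unc-76, 313 bp upstream of the 5' end (chrV:15071219-15071674), had a pooled signal of 48.4 (rank 923). Unlike unc-14 it had like ranks in both libraries, 1105 in replicate 1 and 1587 in replicate 3, with signals of 22.7 and 23.6. The strongest pooled signal was 37.0 at unc-51, a ULK-type kinase gene, and 22.7 at unc-119, which encodes a lipid-binding trafficking protein. The synaptic scaffold gene syd-1, which acts with syd-2 at presynaptic sites, had a single pooled region of signal 15.3 (rank 18469). This syd-1 region lay 8687 bp downstream of the 5' end. The strongest syd-1 regions of the single libraries lay in introns nearer the 5' end. They had a signal of 15.97 (rank 3125, 1639 bp downstream) in replicate 1 and 20.8 (rank 2298, 1790 bp downstream) in replicate 3. The pooled list had no region there, so the pooled and single-library values belong to different places.

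Promoter regions were somewhat higher in signal than intron regions at these genes in the pooled list, and hardly so in the single libraries. The 21 promoter regions had a median pooled signal of 23.3 (quartiles 15.2 and 37.6), against 18.5 (16 and 24.4) for the 152 intron regions, a ratio of 1.26. Over all protein-coding genes the medians were 20.2 and 17.8, a ratio of 1.14. In the replicate 1 list the ratio at the 34 genes was 1.01, against 1.09 for all protein-coding genes, and in the replicate 3 list it was 1.04, again against 1.09. In the optimal list the median signal was 104.5 for the 2 promoter regions, against 79.0 for the 4 intron regions. Over all protein-coding genes the optimal list ran the other way, with medians of 90.8 at promoters and 100.98 in introns. Counted in gene bodies alone, the pooled ratio at the 34 genes was 0.981. That setting drops every summit upstream of the 5' end and left 191 of the 231 regions. Its promoter class was then only the first 200 bp of the gene, so the ratio does not compare whole promoters with introns. The quartiles of the 2 classes overlapped widely, as the plot of signal by position shows.

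Within single genes the strongest promoter region was compared with the strongest intron region, a comparison that depends on how many regions each class holds. The 34 genes had 152 intron regions at 31 genes and 21 promoter regions at 17. Over all protein-coding genes there were 9134 at 4542 genes and 8037 at 6589, counting a region once per gene. Of the 34 genes, 15 had both a promoter and an intron pooled region, and the strongest promoter region exceeded the strongest intron region in 6 of them (unc-40, mab-20, unc-115, unc-44, unc-14 and unc-76), or 40%, against 54.7% of 1970 protein-coding genes with both. The strongest pooled region of a gene lay in the promoter for 7 genes, 1 to 2 kb upstream for 7, in an intron for 16 and in an exon for 4. This count was not made over all protein-coding genes, and introns held 65.8% of all pooled regions at the 34 genes. Of the pooled regions ranked 2000 or better, 6 were among the 21 promoter regions (28.6%, against 17.6% of promoter regions of all protein-coding genes), and 13 among the 152 intron regions (8.55%, against 5.71%). None of the 37 exon regions ranked that high, against 1.92% for all protein-coding genes.

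The share of genes with a region depended on the class. A pooled promoter region was found at 17 of the 34 genes, against 33% of all protein-coding genes and 43.7% of those of at least 5 kb. An intron region was found at 31 genes, against 22.7% and 67.7%. An exon region was found at 16 genes, against 16.6% and 37%, and a region 1 to 2 kb upstream of the 5' end also at 16, against 20.5% and 27.8%. The contrast was thus smaller against the genes of at least 5 kb than against all protein-coding genes in each class, most of all for introns. Introns held 65.8% of the 231 regions at the 34 genes, against 57.7% at all genes of at least 5 kb and 33% at all protein-coding genes. The annotated gene start was used here; 18 of the 152 intron regions (11.8%) lay at the promoter of a shorter transcript of the same gene, against 12.5% for all protein-coding genes, and these 18 had a median pooled signal of 19.3, against 18.5 for the other 134.

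**Figure D3:**
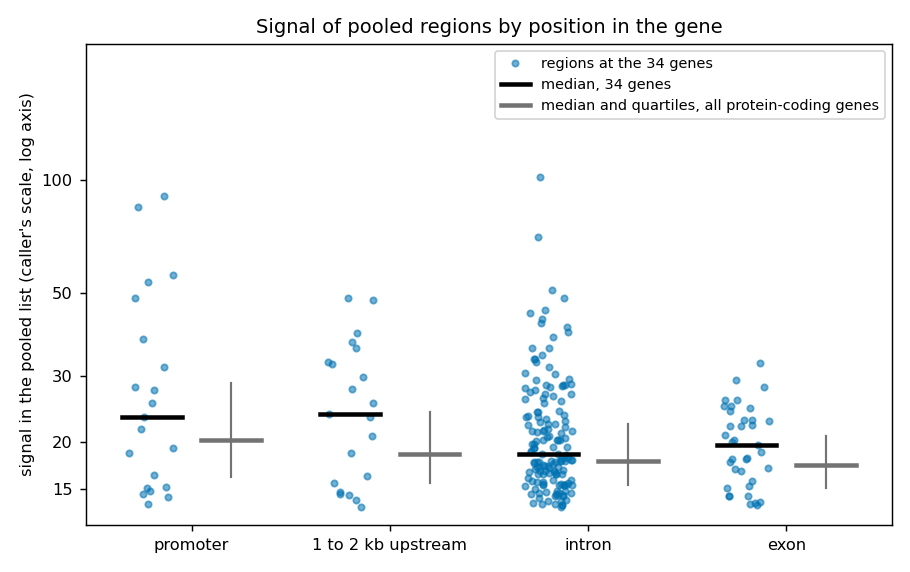
Pooled signal (vertical log axis, peak caller's scale) of the regions at the 34 genes by position, 1 point per region, with the median as a black bar. Grey bars and lines give the median and quartiles over all protein-coding genes; the points of the 4 classes overlap, and the highest points are in introns (102) and promoters (90.3).

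Length went with the number of regions. The 34 genes had a median length of 8.71 kb, against 2.03 kb for all protein-coding genes, and a median of 6 pooled regions (1 to 20), against 1. Per kb of span searched (the gene and 2000 bp to each side of its 5' end) they had 0.458 regions. The values were 0.246 for all protein-coding genes and 0.283 for those of at least 5 kb. At genes shorter than 2000 bp the span also ran past the gene's end, so the first 2 values cover unlike sequence. The most regions lay at unc-73 (20 in 32.4 kb) and vab-1 (18 in 19.0 kb), and unc-44 had 6 in 29.3 kb. The optimal regions did not follow this order: syd-2 had 1 pooled region in 6.13 kb, and vab-2 had 9 in 5.63 kb. At the limit of the 2000 bp reach, the last regions inside it lay 1894 bp (sax-3, signal 23.7) and 1831 bp (vab-2, 15.6) upstream, and the first outside it 2194 bp (syd-2, 14.9) and 2242 bp (vab-1, 15.9).

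**Figure D4:**
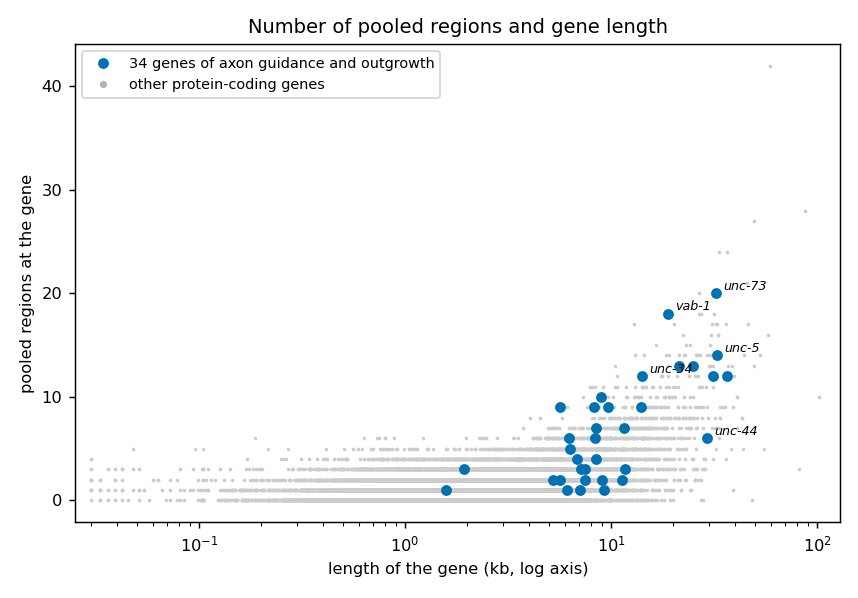
Number of pooled regions at a gene (vertical axis) against gene length (horizontal log axis, kb), with the 34 genes as large points and other protein-coding genes as small grey points. Longer genes have more regions; unc-73 (20) and vab-1 (18) have the most of the 34 genes.

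The libraries matched each other about as well at these genes as elsewhere. Of the 231 pooled regions, 46 had a summit within 100 bp in both replicate lists (19.9%, exact binomial 95% interval 15 to 25.7%), against 18.2% of all pooled regions. The interval covers counting error only and treats regions as independent, although several lie at the same gene. A total of 38 regions had a match in neither list, and 11 genes had no region matched in both. The matched regions were 7 of 21 at promoters, 9 of 21 between 1 and 2 kb upstream, 26 of 152 in introns and 4 of 37 in exons. These shares by class were not computed for other genes. Over the 46 matched regions log2 signals correlated between the libraries with Pearson's r of 0.506 and Spearman's rho of 0.412, against 0.605 and 0.456 over 4412 matched pooled regions; regions of 1 gene share their surroundings, and the value is a description. A rank of 2000 or better in both libraries was reached by 8 of the 231 regions (3.46%, against 2.87% of all pooled regions), at smp-1, vab-2, unc-33, unc-44, unc-76, unc-115 and syd-2.

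**Figure D5:**
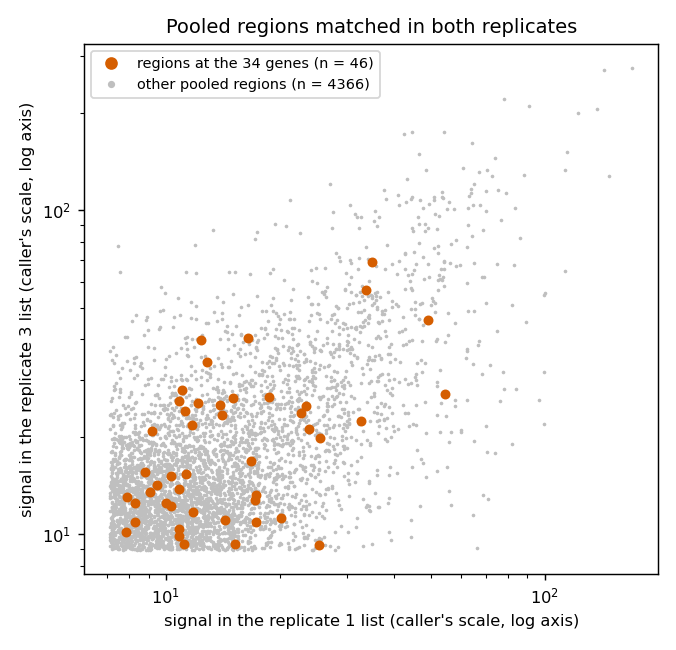
Signal in the replicate 3 list (vertical log axis) against signal in the replicate 1 list (horizontal log axis), both on the peak caller's scale, for pooled regions with a summit within 100 bp in both lists. Large points are the 46 regions at the 34 genes; most lie within the grey cloud of other regions, and those at smp-1 (54.6 in replicate 1), unc-115, unc-33 and syd-2 lie toward its upper right.

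Base content and motifs were described in windows reaching 50 bases to each side of the summits. The median GC content was 40.6% at the 34 genes, against 36.6% over all pooled regions, and 54.0% at the 6 optimal regions, against 51.5% over the optimal list. A tRNA or snoRNA gene lay within 100 bp of 3 of the 231 pooled summits (1.3%, against 1.88%), all of them tRNA genes, at unc-33, unc-115 and slt-1. In the optimal list it was 1 of 6, against 28.7% of all optimal regions. Most of the optimal regions at the 34 genes thus had no such gene beside them, with the higher unc-33 region as the exception.

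The letters GAGAGA, searched on both strands, occurred in 28 of the 231 windows (12.1%), against 8.56% of all pooled windows. They were most frequent in promoter windows, 8 of 21 (38.1%), against 9.82% of the promoter windows of all protein-coding genes, and were found at unc-40, smp-1, unc-33, unc-115, unc-73, unc-14 and unc-76, with 2 windows at unc-115. In intron windows the share was 8.55%, against 6.76%. In the optimal list 1 of the 6 windows, that of unc-115, held the letters, against 22.7% of all optimal windows. The promoter windows of unc-40, unc-14, unc-76 and unc-115, the 4 highest promoter signals after syd-2, all held them, while that of syd-2 did not. The next highest, a second promoter region of unc-40 (402 bp upstream, pooled signal 37.6), did not hold them either. The promoter region of smp-1, the lowest of the 21 with a pooled signal of 13.6, did hold them.

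Of the homeodomain-type motifs, TAATTA occurred in 8 windows (3.46%), against 5.17%, and in none of the 6 optimal windows, against 1.54% of all optimal windows. The paired form, TAAT and ATTA 2 bases apart, occurred in 1 window (0.433%, against 0.524%), and with 3 bases between them in none of the 231, against 0.463%. The letters CACGTG occurred in 8 windows (3.46%, against 1.78%), none of them in a promoter. A match is only a run of letters, and none of these shares was tested.

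For 75 of the 231 regions (32.5%) the nearest protein-coding 5' end was that of another gene, and the share was 59.5% for exon regions and 9.52% for promoter regions. A total of 5 regions also lay in the promoter of another gene, among them those of unc-40 beside npp-7, and 4 also lay inside another gene.

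A list of 50 other genes of axon guidance, outgrowth, extracellular matrix and axonal transport, chosen with earlier results known, was examined in the same way. At least 1 optimal region was found at 3 of them (6%, against 3.28% of all protein-coding genes and 5.85% of those of at least 5 kb). A pooled region was found at 44 (88%, against 62.2% and 86.9%). Both shares were thus close to those of genes of at least 5 kb. How many of the 50 genes reach that length was not counted. The optimal regions lay in an intron of unc-104, a kinesin-3 motor gene (chrII:7001422-7001877, optimal signal 107), upstream of unc-116, the kinesin-1 heavy chain gene (chrIII:8356279-8356734, 1333 bp from the 5' end, 95.2), and upstream of mig-2, a Rac-type GTPase gene (chrX:11546467-11546922, 1913 bp, 71.8). The strongest pooled region per gene had a median signal of 29.8 in these genes with a region, against 35.5 in the 34 genes. Over every pooled region the medians were 18.8 and 19.3. The 6 genes without any pooled region were unc-129, rac-2, rpm-1, pak-1, epi-1 and ina-1.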

How the data were processed

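Peak lists of 2 ChIP-seq libraries were analysed. Regions were called by the authors per library and on both libraries pooled, and those passing an IDR threshold form the optimal list, per the notes deposited beside the lists. The aligner, peak caller and their versions are not given in the sources used here. Signal is the peak caller's value, as deposited by the authors. Each pooled score deposited by the authors was taken for a −log10 q-value, which is what the file format defines; the score of the optimal list was not used. From these files, the ce11 lists were joined to Ensembl release 115 genes (WBcel235) with Python 3.11.15, pandas 2.3.3, numpy 2.4.6 and scipy 1.17.1. Each summit took the first class that applied: promoter, exon or intron inside the gene, otherwise upstream or downstream. Downstream meant past the end of a short gene but within 2000 bp of its 5' end. No pooled region at the 34 genes was of this class, against 6.55% over all protein-coding genes, whose shares include it. Positions count from 1. Summits within 100 bp matched between lists, and windows reached 50 bases to each side of a summit. The joins were checked on simulated data. The 34 genes, the lists and the motifs were chosen with earlier results of these data known. The rule for named genes took those with an optimal region, the 10 with the highest and the 3 with the lowest strongest pooled signal, and any without a pooled region; the other genes were named after their values were seen. With 1 group no test was made, and the depth is unknown. Whether the replicates came from separate cultures is not stated beyond the label of biological replicate. Alternatives in reach, promoter limits, gene starts, list, matching distance and replicate were tried.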

Additional observations from a re-analysis of the deposited data

How the results depend on the processing

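Of 91 recomputed values under 16 alternative settings, 72 stayed near the main value, 18 moved and 1 turned round. Near meant within 1.5 times for a count, within 1 SD of the libraries for a median or ratio, and within the exact binomial 95% interval of the main value for a percentage. Counting only gene bodies left 3 genes with an optimal region, a promoter median of 18.2 and a promoter to intron ratio of 0.981. That setting drops all summits upstream of the 5' end, so its promoter class was only the first 200 bp of the gene. The turned ratio therefore does not compare whole promoters with introns. With the 5' end of every annotated transcript the promoter median was 21.2 and the ratio 1.15, and with a promoter of 2000 bp upstream the ratio was 1.32. Keeping only regions in the upper part of each list by signal (at or above its median) left 3 genes with 3 optimal regions and 126 pooled regions, with a promoter median of 29.8, an intron median of 24.1 and 36.5% matched in both libraries. Matching within 50 bp gave 11.3%, within 250 bp 39.0%, and by overlap 53.2%. Leaving out a replicate, with its list scaled to the pooled median, gave ratios of 1.01 without replicate 3 and 1.04 without replicate 1, promoter medians of 19.6 to 21.9 and intron medians of 19.4 to 21.1. The cause was not tested. The background of genes of at least 5 kb was chosen after seeing the data. No paired analysis was possible because the series has 1 group.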
